A study of Mus musculus with 10 samples.

Results

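Pax6, Sox1, Nkx2-2 and Olig2 encode transcription factors of the developing nervous system, and their loci were examined for 2 histone marks in mouse embryonic stem (ES) cells before and after differentiation. The loci were taken as 4 windows of the mouse genome build mm9: chr2:105502001-105542000 for Pax6 (40 kb), chr8:12380001-12404000 for Sox1 (24 kb), chr2:146998001-147018000 for Nkx2-2 (20 kb) and chr16:91220001-91234000 for Olig2 (14 kb). The windows were set by genome position, with earlier results of these data known. They comprise 49 bins of 2 kb, of 1320929 such bins in the whole genome. Exons, introns and start sites within the windows were not placed, because no annotation of mm9 was used here.

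The study sequenced chromatin immunoprecipitates in 10 libraries, 1 library for each cell line, state and mark. Trimethylated lysine 4 of histone H3 (H3K4me3) was profiled in the line XT67E1 treated for 4 days with all-trans retinoic acid (atRA), as embryoid bodies (EBs) of 10 days, and undifferentiated. Trimethylated lysine 27 (H3K27me3) was profiled in the same 3 states of XT67E1, and in the lines LF2 and E14 as 10-day EBs and undifferentiated. The strain label was C3H/Pgk*129 for XT67E1 and 129/Ola for LF2 and E14. As background, E14 is male, whereas both XT67E1 and LF2 are female. All cells started from cultures on gelatin in serum with leukaemia inhibitory factor (LIF), and EBs were formed by removing LIF. EBs are mixed aggregates of many cell types, and in such bulk chromatin fewer cells with a mark and less mark per cell cannot be told apart. Marker genes of ES cells or of differentiated cells were not placed on mm9, so the labelled states were not checked against them and are not analysed here.

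As background, H3K27me3 is deposited by Polycomb repressive complex 2 and marks developmental regulators that are kept silent. H3K4me3 marks the promoters of active genes, and in ES cells many silent developmental regulators carry both marks at their promoters, a state called bivalent. Sox1 is among the earliest factors of the neural plate. Pax6 acts in neural progenitors and in the eye. Nkx2-2 and Olig2 pattern the ventral neural tube, where Olig2 is needed for motor neurons and oligodendrocytes, and Nkx2-2 also acts in the pancreas. Retinoic acid is widely used to turn ES cells towards neural fates.

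Polycomb-bound and H3K4me3-bearing promoters are typically rich in the dinucleotide CG, so the promoter sequence of each gene is shown first. The sequences are those of RefSeq on GRCm38.p6, 250 bases before to 50 after the annotated start, given 5′ to 3′ on the gene's strand, with each CG in capitals. All 4 genes matched the RefSeq table, Pax6 with 2 promoters, of which the first listed is printed. These positions are on another build than the windows and were not converted, so no read count is attached to them.
Sox1 promoter, GRCm38.p6 chr8:12395269-12395568, plus strand: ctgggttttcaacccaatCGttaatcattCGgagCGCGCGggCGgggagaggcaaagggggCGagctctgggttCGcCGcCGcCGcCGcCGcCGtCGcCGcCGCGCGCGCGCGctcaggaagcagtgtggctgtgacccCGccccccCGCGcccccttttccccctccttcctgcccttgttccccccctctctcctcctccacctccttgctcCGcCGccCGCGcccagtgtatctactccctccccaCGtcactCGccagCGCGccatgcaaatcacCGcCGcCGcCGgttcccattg
Olig2 promoter, GRCm38.p6 chr16:91225300-91225599, plus strand: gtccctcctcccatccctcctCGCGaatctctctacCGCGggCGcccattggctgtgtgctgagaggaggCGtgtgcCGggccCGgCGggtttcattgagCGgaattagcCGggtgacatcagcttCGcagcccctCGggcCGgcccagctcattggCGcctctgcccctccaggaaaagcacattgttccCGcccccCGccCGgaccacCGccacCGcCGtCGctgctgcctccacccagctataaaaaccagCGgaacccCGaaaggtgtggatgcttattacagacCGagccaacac
Nkx2-2 promoter, GRCm38.p6 chr2:147186353-147186652, minus strand: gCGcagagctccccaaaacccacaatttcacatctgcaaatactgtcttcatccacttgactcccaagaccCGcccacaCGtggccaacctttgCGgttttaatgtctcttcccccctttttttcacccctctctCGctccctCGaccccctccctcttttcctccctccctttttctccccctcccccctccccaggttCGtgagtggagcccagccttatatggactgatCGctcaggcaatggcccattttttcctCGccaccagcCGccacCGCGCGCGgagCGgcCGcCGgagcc
Pax6 promoter 1, GRCm38.p6 chr2:105668646-105668945, plus strand: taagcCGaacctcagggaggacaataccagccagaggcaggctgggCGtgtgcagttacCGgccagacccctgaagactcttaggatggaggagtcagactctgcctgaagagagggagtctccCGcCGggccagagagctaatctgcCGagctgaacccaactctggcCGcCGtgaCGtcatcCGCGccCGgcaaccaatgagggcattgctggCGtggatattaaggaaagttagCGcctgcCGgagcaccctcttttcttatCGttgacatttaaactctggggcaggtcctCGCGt
The Sox1 promoter held 37 CG dinucleotides, more than 94.4% of the 32851 mouse promoters of this length in the table. Olig2 held 25, Pax6 promoter 1 held 18, Nkx2-2 held 17 and Pax6 promoter 2 held 16, against a median of 7 over all promoters. The GC content was 70.7% for Sox1, 65% for Olig2, 59.7% for Nkx2-2, 58.7% for Pax6 promoter 1 and 46.3% for Pax6 promoter 2, against a median of 52.7%. The retinoic acid receptor half-site AGGTCA, searched on both strands, was not found in these 5 windows of sequence. It occurs in 16.3% of all promoters in the table.

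Reads were counted by the midpoint of each deposited interval and are given as RPM, reads per 1000000 autosomal reads. Libraries of a set had equal totals: 2252395 reads for each H3K4me3 library, 8380007 for each XT67E1 H3K27me3 library and 4531733 for each LF2 or E14 library. The share of autosomal reads in the 1% of 20 kb windows with the most reads, a measure of how strongly a library is concentrated, was 7.24% after atRA, 6.06% in EBs and 8.68% in undifferentiated cells for H3K4me3. For H3K27me3 it was 5.33%, 4.58% and 4.22% in those states of XT67E1. It was 5.06% in EBs and 6.10% in undifferentiated cells of LF2, and 7.17% and 6.09% in those of E14. With 1 library per group, intervals on a count or on a ratio of 2 libraries are exact 95% intervals for counting error only, and reads without molecular identifiers are not independent molecules.

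All 4 loci lay within broad H3K27me3 domains in every line and state. The window density was 4.70 to 20.7 times the autosomal mean over the 28 combinations of window and H3K27me3 library. Each window held more H3K27me3 reads than at least 99.6% of autosomal windows of its length in every library. Relative to the autosomal mean, Olig2 and Sox1 had the highest density and Pax6 the lowest in each of the 7 libraries. Set against the mean of each window's own chromosome, this did not hold in LF2 EBs. There Sox1 was at 6.90 times, below Nkx2-2 at 7.84 and Pax6 at 6.95 times.

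The Olig2 window was covered from end to end. It had 12.6 times the autosomal mean in XT67E1 cells after atRA, 10.2 times in their EBs and 8.70 times in undifferentiated cells. In LF2 the density was 10.5 times the mean in EBs and 13.1 times in undifferentiated cells, and in E14 it was 20.7 times in EBs and 17.1 times in undifferentiated cells. All 7 of its bins reached the 99th percentile of autosomal 2 kb bins in all 7 libraries, so the domain has no edge inside these 14 kb.

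The Sox1 window had 14.6 times the autosomal mean in XT67E1 after atRA, 12.6 times in EBs and 9.97 times in undifferentiated cells. It had 9.59 times in LF2 EBs and 13.2 times in undifferentiated LF2 cells, and 16.8 times in E14 EBs and 15.4 times in undifferentiated E14 cells. Between 11 and 12 of its 12 bins reached the 99th percentile in each library. Chromosome 8 itself had a raised read density in the female lines. For H3K27me3 it was 1.52 times the autosomal mean in XT67E1 after atRA, 1.48 times in EBs and 1.49 times in undifferentiated cells, 1.39 and 1.23 times in LF2 EBs and undifferentiated LF2 cells, and 1.01 and 0.989 times in those of E14. Set against its own chromosome, Sox1 had 9.61, 8.56 and 6.68 times the mean in XT67E1 after atRA, in EBs and undifferentiated. On the same scale it had 6.90 and 10.7 times the mean in EBs and undifferentiated cells of LF2, and 16.7 and 15.6 times in those of E14. On both scales Sox1 was thus highest in E14. On the autosomal scale, however, the interval of undifferentiated E14 cells (14.26 to 16.63) overlapped that of XT67E1 after atRA (13.75 to 15.46). Olig2 also had its highest densities on that scale in E14.

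The Nkx2-2 window was marked unevenly. It had 7.51 times the autosomal mean in XT67E1 after atRA, 7.06 times in EBs and 5.46 times in undifferentiated cells. The density was 8.18 times the mean in LF2 EBs and 10.2 times in undifferentiated LF2 cells, and 12.6 times in E14 EBs and 10.3 times in undifferentiated E14 cells. Its first 3 bins held 4 to 40 reads each and the last 6 bins held 26 to 107 reads each over the 7 libraries. The flank of the same length on the low-coordinate side was at 1.01 to 1.35 times the autosomal mean, and the flank on the other side was at 2.87 to 6.68 times. Here the domain has an edge on the low-coordinate side and extends past the window on the other.

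The Pax6 window had 4.87 times the autosomal mean in XT67E1 after atRA, 6.31 times in EBs and 4.70 times in undifferentiated cells. LF2 had 7.24 times in EBs and 8.16 times in undifferentiated cells, and E14 had 12.3 times in EBs and 6.70 times in undifferentiated cells. The domain ended at or before chr2:105534000 in every library. The bin just before that position, chr2:105532001-105534000, held 10 reads in XT67E1 after atRA, 29 in EBs and 15 in undifferentiated cells. It held 16 in LF2 EBs and 6 in undifferentiated LF2 cells, and 22 in E14 EBs and 3 in undifferentiated E14 cells. Each of the 4 bins beyond held at most 9 reads, up to 5 in undifferentiated LF2 cells and 6 in undifferentiated E14 cells, so in these libraries the mark was at or near the outside level already in the bin before. The 4 outer bins were low in every library, and the flank of 40 kb beyond the window was at 0.578 to 1.01 times the autosomal mean. The flank on the other side was at 2.24 to 3.22 times.

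**Figure D1:**
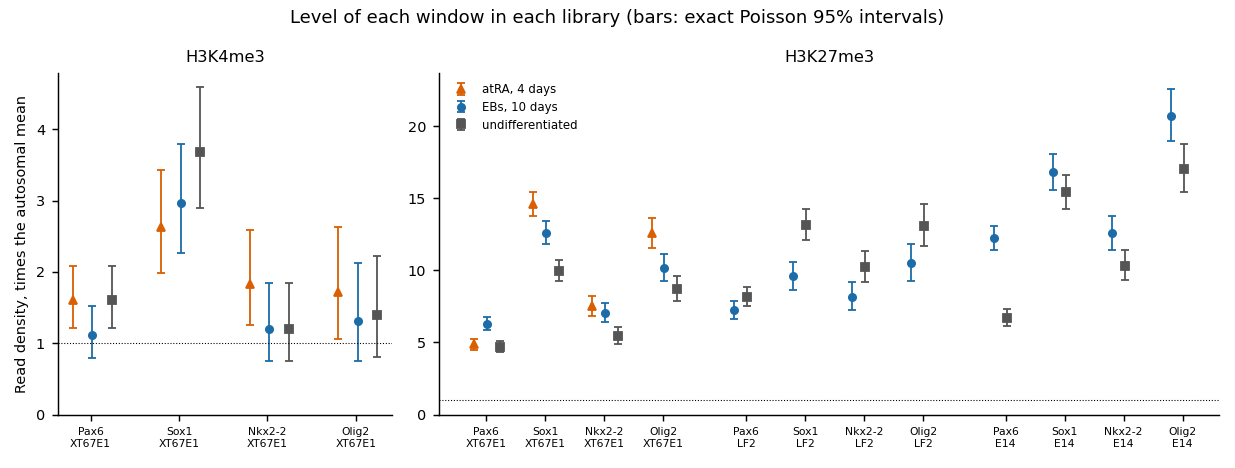
Read density of each window relative to the autosomal mean (y axis, linear) for H3K4me3 in XT67E1 (left) and H3K27me3 in 3 lines (right), 1 library per point, with exact Poisson 95% intervals as bars. H3K27me3 points lie between 4.70 and 20.7 times the mean and H3K4me3 points between 1.12 and 3.68 times. On this scale Sox1 is highest for H3K4me3 in every state, but against its own chromosome Sox1 (1.846) does not exceed Olig2 (1.852) after atRA.

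By H3K27me3 density relative to the autosomal mean, Sox1 came before Olig2, Nkx2-2 and Pax6 in the 3 XT67E1 libraries and in undifferentiated LF2 cells. Olig2 came before Sox1, Nkx2-2 and Pax6 in LF2 EBs and both E14 libraries. Set against each window's own chromosome, however, Olig2 came before Sox1 in every library. On that scale Olig2 and Sox1 had 9.156 and 6.684 times the mean in undifferentiated XT67E1 cells, and 14.55 and 10.66 times in undifferentiated LF2 cells. On the autosomal scale the counting intervals of Sox1 and Olig2 overlapped in 4 of the 7 libraries, which were LF2 EBs and the undifferentiated cells of all 3 lines. Those of Nkx2-2 and Pax6 overlapped in 4 libraries, which were the EBs of all 3 lines and undifferentiated XT67E1 cells. In LF2 EBs those of Sox1 and Nkx2-2 overlapped as well. On this scale Olig2 came before Sox1 with intervals that did not overlap only in E14 EBs, at 20.7 and 16.8 times the mean. The shape of the mark along a locus was shared more closely at Pax6 and Nkx2-2 than at Olig2. Over the 21 pairs of H3K27me3 libraries, Pearson's r across the bins of a window had a median of 0.861 at Pax6 (range 0.654 to 0.948) and 0.819 at Nkx2-2 (0.672 to 0.940). It was 0.612 at Sox1 (0.201 to 0.776) and 0.307 at Olig2 (-0.294 to 0.795). Bins of a window are neighbours from the same libraries, and Olig2 has only 7 of them, so these are descriptions.

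**Figure D2:**
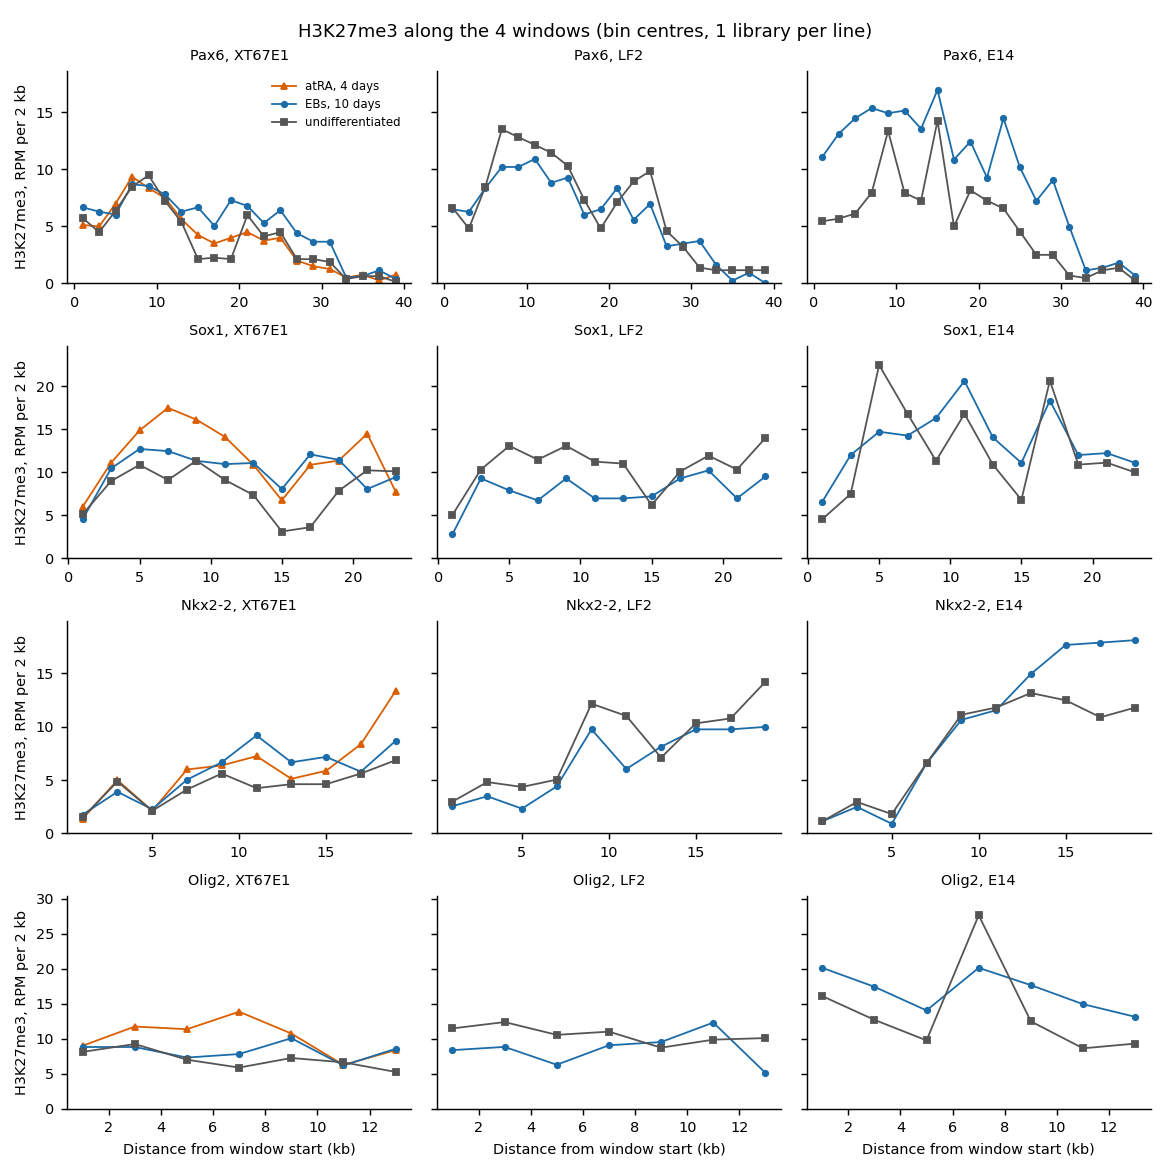
H3K27me3 in RPM per 2 kb bin (y axis) against the distance from the start of each window (x axis, kb) in XT67E1, LF2 and E14, with 1 library per line and a separate scale per locus. Pax6 drops to the background beyond 32 kb in every library, and Sox1 and Pax6 in undifferentiated XT67E1 cells show dips near 16 kb and near 17 kb.

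H3K4me3 was low at 3 of the 4 loci and formed a peak at Sox1. The Sox1 window held 55 reads after atRA, 62 in EBs and 77 in undifferentiated cells, which is 25.5, 28.7 and 35.7 RPM and 2.63, 2.96 and 3.68 times the autosomal mean. The Pax6 window held 56, 39 and 56 reads in the same order of states, Nkx2-2 held 32, 21 and 21, and Olig2 held 21, 16 and 17. These correspond to 1.12 to 1.84 times the autosomal mean. Chromosome 8, which holds Sox1, was itself at 1.425 to 1.436 times the autosomal mean in the H3K4me3 libraries. Set against its own chromosome, the Sox1 window had 1.846 times the mean after atRA, 2.065 times in EBs and 2.562 times in undifferentiated cells. After atRA this was no higher than Olig2, at 1.852 times on that scale, and Nkx2-2 was at 1.769 times. Bins at or above the 99th percentile for H3K4me3 occurred at Sox1 in 2 bins after atRA, 1 in EBs and 2 in undifferentiated cells, and in 0 bins of the other windows. Such counts leave wide intervals: the H3K4me3 log2 ratio of atRA over undifferentiated cells at Olig2, 0.29, had an interval of -0.69 to 1.32.

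The H3K4me3 peak at Sox1 spanned 2 adjacent bins, which held 48 of the 77 reads of the window in undifferentiated cells. The bin chr8:12396001-12398000, the one with the most H3K4me3 reads of any window bin, held 16 reads after atRA, 14 in EBs and 31 in undifferentiated cells. Its neighbour chr8:12394001-12396000 held 13, 6 and 17 reads in these states. At 500 bp the undifferentiated signal started sharply, with 15 reads in chr8:12395501-12396000 against 1 read in the 500 bp before. The other 3 windows had their richest H3K4me3 bins at chr2:105516001-105518000 (10 reads after atRA, 3 in EBs and 7 undifferentiated), at chr2:147008001-147010000 (4, 6 and 2 reads) and at chr16:91222001-91224000 (7, 4 and 2 reads).

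**Figure D3:**
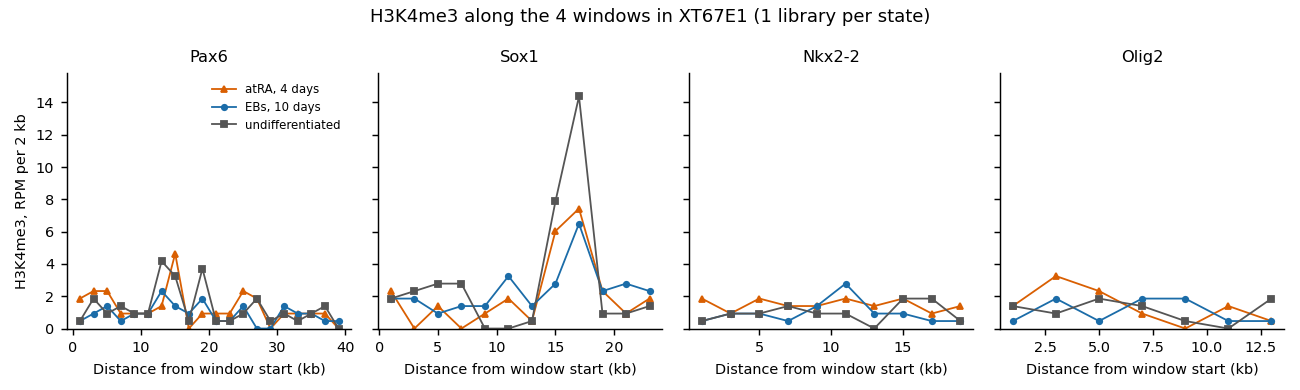
H3K4me3 in RPM per 2 kb bin (y axis, same scale for all loci) against the distance from the start of each window (x axis, kb) in XT67E1, 1 library per state. The Sox1 peak near 17 kb reaches 14.4 RPM in undifferentiated cells, and no bin of the other windows exceeds 4.64 RPM.

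The Sox1 peak held fewer H3K4me3 reads in both differentiated states. Both bins were at least 2-fold lower in EBs than in undifferentiated cells, with log2 ratios of -1.09 (95% interval -2.17 to -0.19) at chr8:12396001-12398000 and -1.36 (-3.13 to -0.09) at its neighbour. A bin is called here when it differs by 2-fold or more, its interval excludes 1-fold and the compared pair of libraries holds at least 20 reads in it, and these were the only 2 window bins with enough H3K4me3 reads. With a pseudocount of 5 reads neither was called, and with bins of 1 kb 1 was. Both bins reached the minimum, which is on the sum of the pair, largely through undifferentiated cells. A bin such as chr8:12390001-12392000, with 7 reads in EBs and 0 in undifferentiated cells, fell below it. The rule could thus hardly find a rise in EBs here, and with no read minimum 2 window bins were called lower and 1 higher. With the minimum, 12.8% of autosomal bins were called lower in EBs than in undifferentiated cells and 2.88% higher. After atRA neither bin of the peak was called, with log2 ratios of -0.91 and -0.36. The background for atRA was 12.2% called lower and 4.76% higher. Summed, the 4 kb of both bins held 29 reads after atRA, 20 in EBs and 48 in undifferentiated cells. The rest of the Sox1 window held 26, 42 and 29. For the whole windows, scaled to autosomal reads, every H3K4me3 interval included 0 in each comparison of 2 states. The Sox1 window had a log2 ratio of -0.48 (-1.01 to 0.03) after atRA and -0.31 (-0.82 to 0.19) in EBs. Under scaling to background reads, those in autosomal 10 kb bins up to the median coverage, some intervals excluded 0. Sox1 after atRA came to -0.58 (-1.12 to -0.07) and Pax6 in EBs to -0.67 (-1.31 to -0.07), over undifferentiated cells. H3K4me3-rich windows as a class were lower too. Among autosomal 20 kb windows in the top 1% by level in the compared pair, 39.1% had an interval below 0 after atRA and 68.3% in EBs, with medians of -0.23 and -0.54. The Sox1 window was 0.24 below that median after atRA and 0.23 above it in EBs. After atRA Nkx2-2 was 0.82 above that median (0.0021 to 1.71). Sox1 itself lay below the top 1% of windows of its length in H3K4me3 reads. It held more than 94.4% of them after atRA, 96.0% in EBs and 96.5% in undifferentiated cells, and the other loci ranked lower still. These loci are thus set against a class to which they do not belong by level.

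At the same 4 kb H3K27me3 was higher in differentiated XT67E1 cells. The bin chr8:12396001-12398000 held 87 H3K27me3 reads after atRA, 96 in EBs and 29 in undifferentiated cells, and chr8:12394001-12396000 held 54, 64 and 25. Undifferentiated cells had a dip there, and both differentiated states lay above them in both bins. The log2 ratios over undifferentiated cells were 1.55 (0.97 to 2.25) and 1.08 (0.40 to 1.86) after atRA, and 1.71 (1.13 to 2.39) and 1.33 (0.68 to 2.10) in EBs. The rest of the Sox1 window differed much less, by 0.46 (0.32 to 0.60) after atRA and 0.19 (0.04 to 0.33) in EBs. The 4 kb were singled out after their values were seen. Relative to the rest of the window, the density of H3K27me3 in these 4 kb was 0.709 after atRA, 0.983 in EBs and 0.374 in undifferentiated cells.

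Over the 4 kb as a whole the dip was shallower or absent in the other lines, and the intervals of the 4 kb included 0. LF2 had 31 and 40 reads in the 2 bins in EBs, against 27 and 44 in undifferentiated cells. E14 had 49 and 81 in EBs, against 30 and 91 in undifferentiated cells. The log2 ratios over the 4 kb were 0.02 (-0.48 to 0.51) in LF2 and 0.10 (-0.27 to 0.47) in E14. The density relative to the rest of the window was 1.08 in LF2 EBs and 0.731 in undifferentiated LF2 cells, and 1.10 and 1.12 in those of E14. A narrower low was present in these lines too. The bin chr8:12394001-12396000 held 27 reads in undifferentiated LF2 cells and 30 in undifferentiated E14 cells, against 48 in the bin before it in each. At chr8:12395001-12395500 undifferentiated cells held 2 reads in XT67E1, 3 in LF2 and 2 in E14. EBs held 9, 4 and 6 there. H3K4me3 was not profiled in LF2 and E14, so the marks cannot be set side by side there. Whether the lines differ at these bins was not tested, since each has 1 library per state.

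Pax6 had a similar but wider dip in undifferentiated XT67E1 cells. The 3 bins from chr2:105516001 to 105522000 held 34, 28 and 32 H3K27me3 reads after atRA, 53, 40 and 58 in EBs, and 17, 18 and 17 in undifferentiated cells. The neighbouring bins held 43 and 48 reads in undifferentiated cells. All 3 were called higher in EBs, with log2 ratios of 1.60 (0.84 to 2.53), 1.12 (0.33 to 2.05) and 1.725 (0.98 to 2.66), and none was called after atRA. Over these 6 kb, also chosen after their values were seen, the log2 ratio was 0.84 (0.35 to 1.37) after atRA and 1.53 (1.09 to 2.03) in EBs. The rest of the Pax6 window was at -0.05 (-0.23 to 0.12) after atRA and 0.26 (0.09 to 0.42) in EBs. H3K4me3 in the 6 kb was sparse, with 12 reads after atRA, 9 in EBs and 16 in undifferentiated cells. In undifferentiated cells the density of H3K27me3 in the 6 kb was 0.528 times that of the rest of the window in XT67E1, 1.16 times in LF2 and 1.92 times in E14. LF2 held 94 reads there in EBs against 98 in undifferentiated cells, and E14 held 178 against 121.

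Over whole windows, H3K27me3 in XT67E1 was higher after atRA at Sox1, Nkx2-2 and Olig2, and the interval at Pax6 included 0. Under scaling to background reads, those in the sparser autosomal bins of 10 kb (coverage up to the median), Pax6 came to 0.19 (0.02 to 0.35). Sox1 held 1135 reads after atRA and 776 in undifferentiated cells, a log2 ratio of 0.55 (0.42 to 0.68). Olig2 held 571 and 395 (0.53, 0.35 to 0.72), Nkx2-2 held 487 and 354 (0.46, 0.26 to 0.66), and Pax6 held 632 and 610 (0.05, -0.11 to 0.22). So 3 of 4 intervals lay above 0, where 5.71% of autosomal 20 kb windows had such an interval. H3K27me3-rich windows as a class were higher after atRA, however. Among the autosomal 20 kb windows in the top 1% by level in the 2 libraries compared, a class chosen after the data were seen, 69.1% had an interval above 0 and the median log2 ratio was 0.35 (quartiles 0.18 to 0.50). Sox1, Nkx2-2 and Olig2 were 0.11 to 0.20 above that median and Pax6 was 0.30 below it.

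By bin, 3 of 45 window bins with enough reads were called higher after atRA and 0 lower, against 3.66% and 2.13% of autosomal bins. Besides the Sox1 pair this was chr16:91226001-91228000 at Olig2, with 111 reads after atRA and 47 in undifferentiated cells (log2 ratio 1.22, 0.74 to 1.77). That bin was the one with the most H3K27me3 in the Olig2 window over the 7 libraries. It held 62 reads in XT67E1 EBs, so it stood out after atRA and not in EBs.

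In XT67E1 EBs all 4 windows had more H3K27me3 than in undifferentiated cells, though at Olig2 this depended on the scaling. Pax6 held 812 reads in EBs and 610 in undifferentiated cells, a log2 ratio of 0.42 (0.27 to 0.58). Nkx2-2 held 454 and 354 (0.37, 0.17 to 0.58), Sox1 held 974 and 776 (0.34, 0.20 to 0.48), and Olig2 held 457 and 395 (0.22, 0.03 to 0.42). Intervals above 0 occurred in 7.17% of all autosomal 20 kb windows and in 21.8% of those in the top 1% by level, where the median was 0.06 (quartiles -0.11 to 0.21). All 4 loci were above that upper quartile. At Olig2 the interval included 0 under scaling to background reads (0.10, -0.09 to 0.30) and relative to the median of the top 1% windows (0.17, -0.03 to 0.365). Of the 45 bins with enough reads, 7 were called higher and 0 lower, against 2.15% and 4.15% of autosomal bins. These were 4 at Pax6, 2 at Sox1 and chr2:147008001-147010000 at Nkx2-2, which held 73 reads in EBs and 34 in undifferentiated cells (1.09, 0.51 to 1.75).

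After atRA and in EBs the XT67E1 loci thus differed in different ways, and the 2 states were also compared directly. Pax6 was lower after atRA than in EBs, with 632 and 812 reads and a log2 ratio of -0.37 (-0.53 to -0.22). Olig2 was higher after atRA (0.31, 0.13 to 0.49), as was Sox1 (0.21, 0.08 to 0.33), and Nkx2-2 was at 0.09 (-0.10 to 0.28). Under scaling to background reads the Pax6 ratio was -0.12 and its interval, -0.27 to 0.03, included 0, and Sox1, Nkx2-2 and Olig2 came to 0.46, 0.34 and 0.56. Relative to the top 1% windows Pax6 was at -0.67 (-0.82 to -0.52). On that scale the sign at Sox1 turned, to -0.09 (-0.21 to 0.04), and Olig2 came to 0.01. Of 45 bins 0 were called higher and 3 lower after atRA than in EBs, against 5.16% and 1.68% of autosomal bins. All 3 lay at the edge of the Pax6 domain, from chr2:105528001 to 105534000. They held 16, 12 and 10 reads after atRA and 35, 29 and 29 in EBs.

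**Figure D4:**
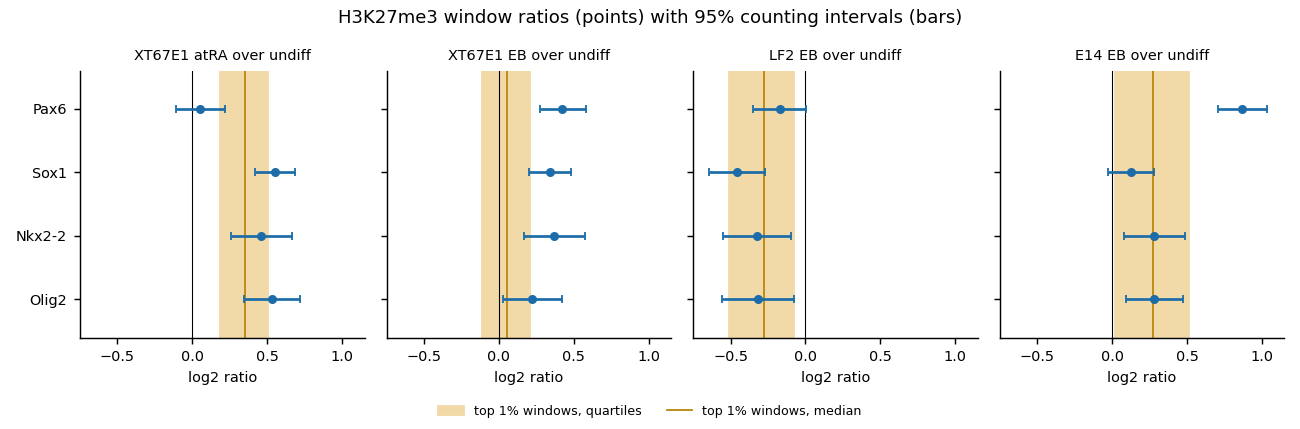
Log2 ratio of H3K27me3 in each window (x axis) for atRA and EBs over undifferentiated cells in XT67E1 and EBs over undifferentiated cells in LF2 and E14, with exact 95% counting intervals as bars. The band and line give the quartiles and median of autosomal 20 kb windows in the top 1% by level, and Pax6 lies below the band after atRA (0.05) and above it in XT67E1 EBs (0.42) and E14 EBs (0.87).

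In LF2 EBs the windows had less H3K27me3. Sox1 held 401 reads in EBs and 557 in undifferentiated cells, a log2 ratio of -0.455 (-0.64 to -0.27). Nkx2-2 held 285 and 361 (-0.32, -0.55 to -0.09), Olig2 held 256 and 323 (-0.32, -0.56 to -0.08), and Pax6 held 505 and 576 (-0.17, -0.35 to 0.0032). Intervals below 0 occurred at 3 of the 4 loci, in 6.47% of autosomal 20 kb windows and in 48.6% of those in the top 1% by level. The median of that class was -0.28 (quartiles -0.51 to -0.08), and all 4 loci lay between its quartiles. Under scaling to background reads Pax6 came to -0.40 (-0.58 to -0.23), so that its interval too lay below 0. Sox1 was at -0.63 when set against chromosome 8, whose share of reads was larger in LF2 EBs. By bin, 1 of 45 was called higher and 0 lower, against 1.98% and 12.5% of autosomal bins. The called bin was chr2:105532001-105534000 at Pax6, with 16 reads in EBs and 6 in undifferentiated cells, so it reached the read minimum largely through EBs.

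In E14 EBs Pax6 stood apart from the other loci. It held 876 H3K27me3 reads in EBs and 478 in undifferentiated cells, which is 198.2 and 108.3 RPM and a log2 ratio of 0.87 (0.71 to 1.03). This ratio was higher than in 99.4% of autosomal windows of the same length. Nkx2-2 held 450 and 369 reads (0.28, 0.08 to 0.49), Olig2 held 519 and 426 (0.28, 0.09 to 0.47), and Sox1 held 721 and 660 (0.12, -0.03 to 0.28). An interval above 0 was found at 3 of the 4 loci, in 4.94% of autosomal 20 kb windows and in 51.2% of those in the top 1% by level, whose median was 0.27 (quartiles 0.02 to 0.51). Nkx2-2 and Olig2 were 0.0106 and 0.0092 above that median and Pax6 was 0.60 above it. Under scaling to background reads Sox1 came to 0.23 (0.08 to 0.38), so that its interval too lay above 0.

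The Pax6 difference in E14 had the same direction throughout the domain, but its size varied along it. All 16 Pax6 bins with enough reads had more H3K27me3 in EBs, with a median log2 ratio of 1.04 and a range from 0.16 to 2.52. Of 43 window bins 8 were called higher and 0 lower, against 9.11% and 6.07% of autosomal bins, and all 8 were at Pax6. The ratio was largest at the edge of the domain. There, chr2:105528001-105530000 held 32 reads in EBs and 11 in undifferentiated cells, chr2:105530001-105532000 held 40 and 11, and chr2:105532001-105534000 held 22 and 3. In the last bin the log2 ratio was 2.52 (1.14 to 5.26). The richest Pax6 bin over the 7 libraries, chr2:105510001-105512000, held 66 reads in E14 EBs and 59 in undifferentiated E14 cells.

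**Figure D5:**
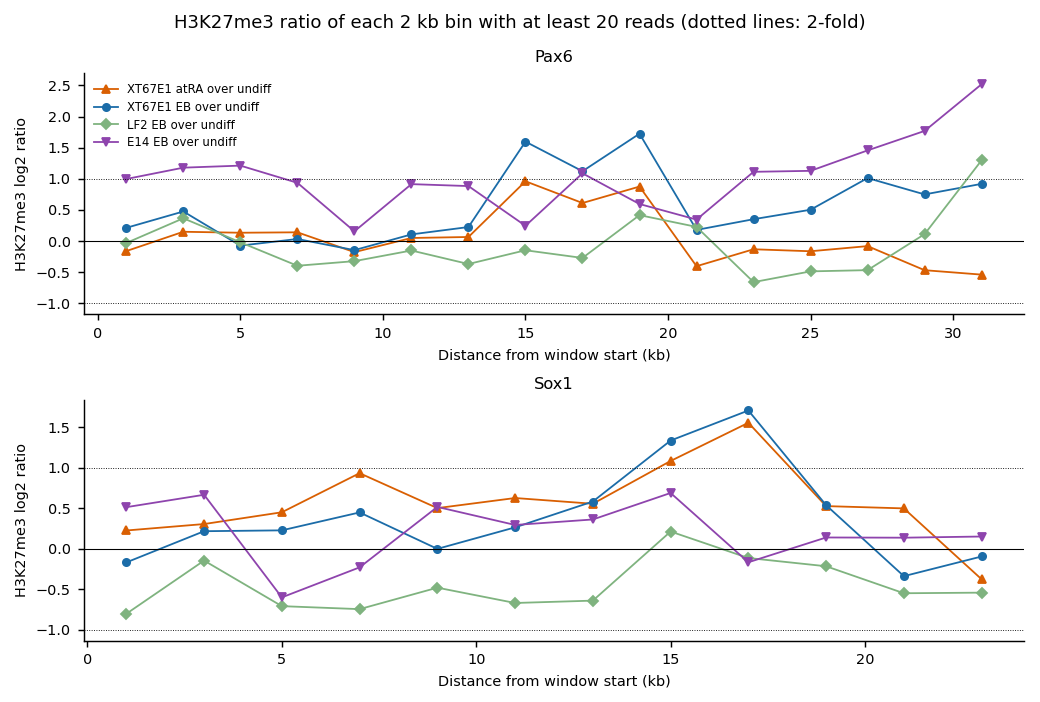
Log2 ratio of H3K27me3 in each 2 kb bin of the Pax6 and Sox1 windows (y axis) against the distance from the window start (x axis, kb) for 4 comparisons, shown where the compared pair of libraries held at least 20 reads, with dotted lines at 2-fold. The EB ratios at the last Pax6 bin shown are 0.92 in XT67E1, 1.30 in LF2 and 2.52 in E14, and the XT67E1 ratios peak in the Sox1 bins near 15 and 17 kb.

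EBs against undifferentiated cells is the one contrast with more than 1 library per state, and 1 window bin passed the test over the 3 lines. H3K27me3 rose in EBs in chr2:105532001-105534000, the bin just before the end of the Pax6 domain. It held 29 reads in XT67E1, 16 in LF2 and 22 in E14 EBs, against 15, 6 and 3 in undifferentiated cells, so that EBs were higher in 3 of 3 lines. The log2 change was 1.58 (SE 0.37), with a Benjamini-Hochberg adjusted p of 0.0317 from limma with the cell line as a block, over 67250 bins of 2 kb with at least 60 reads. In that fit 0.294% of bins rose and 0.222% fell, and 45 of the 49 window bins were tested. The call was lost in each of the 8 other settings tried, where the adjusted p of the lowest window bin was 0.0535 to 0.902, and without E14, the line with the largest ratio, it was 0.22. A bin this narrow at a domain edge holds few reads, and the undifferentiated libraries hold 3 to 15 each. The minimum of 60 reads is on the sum of all libraries in the fit, so this bin reached it largely through its EB reads. The variance behind its p-value was mostly pooled over bins, with 49.7 total degrees of freedom.

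The other 44 tested window bins did not pass. At an unadjusted p under 0.05 limma had 5 window bins, 4 at Pax6 and 1 at Sox1, all higher in EBs, against 11.3% of all bins tested. The Sox1 bin was chr8:12394001-12396000, with a log2 change of 0.74 (SE 0.33) and an adjusted p of 0.372. The median log2 change of the bins was 0.39 at Pax6, 0.05 at Nkx2-2, -0.01 at Sox1 and -0.0027 at Olig2, against -0.10 over all bins tested. Over whole windows the mean log2 ratio of the 3 lines was 0.37 ± 0.52 at Pax6, 0.11 ± 0.38 at Nkx2-2, 0.06 ± 0.33 at Olig2 and 0.0031 ± 0.41 at Sox1 (SD, n = 3). Exact two-sided sign-flip permutation tests gave p = 0.5, 0.75, 1 and 1 for these loci, and 3 lines cannot give a p below 0.25. The spread between lines exceeded the mean at each locus.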

How the data were processed

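The deposited files hold 1 row per read: start and end of an interval of 200 bp, with no value, strand or count, on mm9 per the submitters' processing notes. Per the labels' protocols, chromatin was fixed with formaldehyde, sheared by sonication, precipitated and read on Illumina Genome Analyzers. The aligner, the read filters, the extension to 200 bp and the way the libraries of a set came to equal totals were not given in the sources used here, and equal totals hide any overall difference in pull-down. No interval occurred more than once in a file.

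Midpoints were counted per window and per 2 kb bin and scaled to reads on the 19 autosomes. Log2 ratios used counts plus 1 read, which understates changes of bins with few reads. With 1 library per group there is no test, and exact conditional binomial 95% intervals cover counting error. EBs were tested against undifferentiated cells over 3 lines with limma 3.58.1 (R 4.3.3, intensity trend, cell line as a block) on all 2 kb bins with at least 60 reads in 6 libraries, after tests on simulated data. Libraries are paired because both come from the same cell line. The correlations of their deviations from the state means were 0.306 in XT67E1, 0.0734 in LF2 and 0.361 in E14. Nothing in the labels gives separate cultures, so the only replication is between these lines. The limma variance of a bin was moderated towards a trend over all tested bins, with 49.7 total degrees of freedom. Its p-values therefore rest mostly on spread pooled over bins and not on the spread between the 3 lines at a given bin.

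All 4 windows were named throughout. Single bins were named when richest in a mark, called by limma, or with the highest or lowest ratio among called bins of a window. Bins at the Sox1 dip, the Pax6 dip and the Pax6 edge were named after their values were seen. The members, windows and lists were chosen with earlier results of these data known. Lists of other neural genes and cell type markers were not placed. The planned relation of the 2 marks over bins was not computed, because at most 2 of 49 bins reached 20 H3K4me3 reads summed over a compared pair. Alternatives changed the scaling, pseudocount, read minimum, bin size, window ends, model and lines used. Python 3.11.15, numpy 2.4.6, pandas 2.3.3 and scipy 1.17.1 were used.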

Additional observations from a re-analysis of the deposited data

Results flagged for a closer look

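Scaled to autosomal reads, the lines moved in opposite directions between EBs and undifferentiated cells at 3 loci, each with a counting interval that excludes 0. The H3K27me3 log2 ratio of EBs over undifferentiated cells at Sox1 was 0.34 in XT67E1 and -0.455 in LF2. At Nkx2-2 it was 0.37 in XT67E1 and 0.28 in E14, and -0.32 in LF2. At Olig2 it was 0.22 in XT67E1 and 0.28 in E14, and -0.32 in LF2. This depended on the scaling. Under scaling to background reads the Olig2 interval in XT67E1 included 0 (0.10, -0.09 to 0.30), and Pax6 in LF2 came to -0.40 (-0.58 to -0.23). Relative to the median of the top 1% windows the LF2 intervals included 0, with Sox1 at -0.18 (-0.37 to 0.0094), Nkx2-2 at -0.0443 and Olig2 at -0.0386. The difference between lines was not tested, since each line has 1 library per state. The share of reads in the top 1% of 20 kb windows moved the same way, being 4.58% in EBs and 4.22% in undifferentiated cells of XT67E1, 5.06% and 6.10% in LF2, and 7.17% and 6.09% in E14, and its part in the result was not tested.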

How the results depend on the processing

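The 32 window ratios stayed within their counting intervals under a pseudocount of 5 reads, scaling to the window's own chromosome and windows narrowed by 1 bin at each end. Ratios whose interval includes 0 could still change sign, which 0, 1 and 3 of 32 did in these settings. Narrowing moved Olig2 H3K4me3 in EBs to 0.45, Nkx2-2 H3K27me3 for atRA over EBs to -0.0189 and Pax6 H3K4me3 after atRA to -0.0775, which was -0.0034 with the own chromosome. Scaling to background reads (autosomal 10 kb bins up to the median coverage) shifted whole comparisons, by 0.25 for atRA over EBs and -0.23 for LF2 on the log2 scale, and left 25 of 32 ratios within their intervals, with 1 change of sign. The ratios of H3K27me3 after atRA over EBs became -0.12 at Pax6, 0.46 at Sox1, 0.34 at Nkx2-2 and 0.56 at Olig2, and those of LF2 EBs became -0.40 at Pax6, -0.69 at Sox1 and -0.55 at Nkx2-2. Relative to the median of the top 1% windows, an alternative chosen after seeing the data, 15 of 32 stayed within their intervals and 8 changed sign. The H3K4me3 ratio of Sox1 in EBs became 0.23. For H3K27me3, Pax6, Sox1, Nkx2-2 and Olig2 became -0.30, 0.20, 0.11 and 0.18 for atRA over undifferentiated cells, -0.67, -0.0882 (reversed), -0.21 and 0.0120 for atRA over EBs, 0.11, -0.18, -0.0443 and -0.0386 for LF2 EBs, and 0.60, -0.15, 0.0106 and 0.0092 for E14 EBs, in that order of loci. The cause was not tested.

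Counts of called bins moved as follows. For H3K4me3, bins lower after atRA numbered 1 with no read minimum and 1 with background scaling. In EBs 1 was higher with no read minimum, and those lower numbered 0 with a pseudocount of 5 reads and 1 with 1 kb bins. For H3K27me3, bins higher after atRA numbered 7 with background scaling and 10 with 1 kb bins, and those higher in XT67E1 EBs numbered 13 with 1 kb bins. For atRA over EBs 2 were higher with background scaling and 1 with 1 kb bins, and 1 was lower with background scaling. For LF2 EBs 0 were higher with a pseudocount of 5 reads, background scaling or 1 kb bins, and 3 were lower with background scaling and 5 with 1 kb bins. For E14 EBs 13 were higher with 1 kb bins, where the same stretch gives more bins. Scaling to the own chromosome moved none of the 16 counts.

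The limma call at Pax6 was 0 with 10 kb bins, no read minimum, limma voom, background scaling, no replicate block, and without each line (0 to 0). The adjusted p of the lowest window bin was then 0.179, 0.902, 0.26, 0.0535 and 0.201, and 0.552 without XT67E1, 0.144 without LF2 and 0.22 without E14, where fewer libraries entered. The pairing comes from the cell line, and without the block 14 bins rose and 4 fell genome-wide. The means over 3 lines stayed within 1 SD in all 24 settings, and changed sign at Sox1, Nkx2-2 and Olig2 in some of them, with ranges over left-out lines of -0.17 to 0.23, -0.02 to 0.33 and -0.05 to 0.25. At Pax6 that range was 0.13 to 0.65. Depth limits H3K4me3 most, since 47 of 49 window bins stayed below 20 reads in the sum of every compared pair.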
